A study of Mus musculus with 38 samples.

Results

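ETn (early transposon) and MusD elements are long terminal repeat (LTR) retrotransposons of the mouse genome, and their expression was examined copy by copy after deletion of Trim28 in neural progenitors, in adult forebrain neurons and, by deletion during development, in the cortex. Members were taken by name from the table of uniquely mapped reads, as every row whose name starts with ETnERV, MMETn, RLTRETN or MusD. This gave 5606 of 3494634 transposable element (TE) copies. They comprised 1805 ETnERV2-int, 1355 RLTRETN_Mm, 980 MMETn-int, 906 ETnERV-int and 560 ETnERV3-int copies, and none carried the name MusD. Names ending in "int" are internal parts, and RLTRETN_Mm is the ETn LTR. At least 1 read was counted on 1363 of the copies in the 32 bulk RNA-seq libraries.

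ETn elements have LTRs but no intact retroviral genes, and they move with the proteins of the related MusD elements, which carry gag, pro and pol but lack env. Both belong to the class II (ERVK) endogenous retroviruses, together with IAP and MMERVK10C, and ETn insertions are a known source of spontaneous mouse mutations. Trim28 (KAP1) is a co-repressor that KRAB zinc finger proteins bring to such elements, where it recruits the H3K9 methyltransferase Setdb1. ETn transcripts are best known from the early mouse embryo.

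The study used 5 experiments, each with its own controls. Neural progenitor cells (NPCs) from the embryonic forebrain of Rosa26-Cas9 knock-in mice received a lentivirus with an H2B-RFP reporter and a guide against Trim28 (g3, g4 or g13, 2 libraries each, 6 KO) or against lacZ (2 controls), and RFP-positive cells were sorted 10 days later. In adult Cas9-GFP knock-in mice an AAV5 vector in the striatum carried the guides, singly or all together, and H2B-RFP under the Synapsin promoter, and nuclei were sorted 2 months later (4 KO animals, 1 control). Stop-Cas9-GFP mice, whose Cas9 needs Cre, received AAV vectors with the guides and an H2B-RFP reporter that also needs Cre. A further AAV vector carried Cre under Synapsin, and nuclei were sorted 2 months later (4 KO animals, 1 control). Adult Trim28-flox mice, +/+ or +/-, received AAV vectors for Cre and for nuclear GFP under Synapsin in the forebrain, and GFP-positive nuclei were sorted 2 months later (4 libraries labelled KO, 4 controls). The KO animals were +/+, while the genotype and vectors of each control library are not given in the sources used here. In the Emx1-Cre experiment the cortex of 3-month-old Emx1-Cre +/-; Trim28-fl +/+ animals (3 KO) was compared with Emx1-Cre +/-; Trim28-fl +/- animals (3 controls), which per the labels had also lost 1 allele and carried the same Cre, active in cortical progenitors. A legend of the study instead calls the controls Cre-negative, and the labels are followed here. The viral experiments sorted cells or nuclei positive for the reporter, which leaves out untransduced ones, whereas the cortex was taken as tissue and also holds cells that never expressed Cre. In all of these bulk libraries fewer cells of a type and less RNA per cell cannot be told apart.

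Gene counts were 8790346 to 25345083 per library and uniquely mapped TE counts 782698 to 3538360, of which the ETn and MusD copies took 626 to 5742 reads, or 0.0653% to 0.189%. By edgeR's quasi-likelihood test, Trim28 was lower in the KO group of NPCs (log2 fold change -1.83, adjusted p = 0.031) and of the Emx1-Cre cortex (-1.42, adjusted p = 0.00016). It was -0.51 in Cas9-GFP (adjusted p = 0.42). In Stop-Cas9-GFP it was 88.5 to 127 gene CPM (reads scaled to 1000000 gene reads) in the KO animals and 105 in the control (adjusted p = 1), so the transcript level does not check the labels of those animals. In the flox experiment Trim28 was higher in the libraries labelled KO, at 130.5 to 145 against 25.5 to 31.8 gene CPM (log2 fold change 2.26, adjusted p = 2.9e-06). This goes against the labels, so every direction given below for that experiment is that of the libraries labelled KO against those labelled control. Summed progenitor markers were 1543 to 3661 gene CPM in NPCs and 3.55 to 12.5 in the sorted striatal nuclei, where striatal neuron markers were 958 to 1489, and no gene of the 9 cell type marker lists was called between groups in any experiment.

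The elements were built in several ways. Joining neighbouring copies on 1 strand that lay within 500 bases gave 2897 loci. Of these, 200 had an RLTRETN_Mm LTR on both sides, 190 had one on 1 side, 1747 were internal parts without one and 760 were LTRs alone. Of 1208 LTRs of at least 300 bases, 1121 (92.8%) began with TG and ended with CA, the ends that retroviral integration leaves. In the 200 loci with both LTRs the pair was identical at a median of 97.9% of positions, and 99 pairs reached 98%. Internal parts differed in the LTR they touched. RLTRETN_Mm touched 439 of 980 MMETn-int copies (44.8%) but 15.6% of the ETnERV-int copies, which touched RLTR13G (40.4%), ERVB4_1C-LTR_Mm (36.4%) and ERVB7_1-LTR_MM (35.5%) more often, while ETnERV2-int and ETnERV3-int touched RMER16A3 most often (9.64% and 18%). Most copies were intergenic (4444, 79.3%), 313 lay in introns on the strand of the gene, 670 in introns on the opposite strand, 94 in exons on the same strand and 50 in exons on the opposite strand.

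The LTRs that stand before the copies described below are shown first, since an LTR holds the promoter and the polyadenylation signal of its element. These are the first 300 bases, 5′ to 3′ on the strand of the element, in RefSeq's GRCm38.p6. Capitals are bases that differ from, or are inserted against, the LTR near Gmnn.
LTR of MMETn-int_dup720, near Gmnn, chr13:24764006-24764305, plus strand: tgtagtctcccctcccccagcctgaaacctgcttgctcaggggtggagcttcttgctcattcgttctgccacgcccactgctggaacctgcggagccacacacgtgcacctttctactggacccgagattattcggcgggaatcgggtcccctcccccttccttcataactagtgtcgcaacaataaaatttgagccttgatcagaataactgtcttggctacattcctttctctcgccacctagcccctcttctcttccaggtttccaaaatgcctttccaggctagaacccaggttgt
LTR of MMETn-int_dup16, in an intron of Sbspon, chr1:15862373-15862672, plus strand: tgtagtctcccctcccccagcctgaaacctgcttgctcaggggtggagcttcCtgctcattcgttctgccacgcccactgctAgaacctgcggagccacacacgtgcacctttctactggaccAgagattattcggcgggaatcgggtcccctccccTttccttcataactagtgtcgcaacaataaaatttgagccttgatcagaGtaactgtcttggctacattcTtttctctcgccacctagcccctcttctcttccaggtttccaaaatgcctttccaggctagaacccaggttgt
LTR of MMETn-int_dup364 and ETnERV-int_dup314, in Snhg14, chr7:59384727-59385026, minus strand: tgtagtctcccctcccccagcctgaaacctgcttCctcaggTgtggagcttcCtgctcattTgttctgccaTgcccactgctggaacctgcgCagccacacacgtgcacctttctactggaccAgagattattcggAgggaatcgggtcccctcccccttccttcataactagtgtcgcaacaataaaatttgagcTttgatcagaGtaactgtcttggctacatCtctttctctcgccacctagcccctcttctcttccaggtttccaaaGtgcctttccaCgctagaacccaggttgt
LTR of ETnERV-int_dup709, in Gm19792, chr13:62340255-62340554, minus strand: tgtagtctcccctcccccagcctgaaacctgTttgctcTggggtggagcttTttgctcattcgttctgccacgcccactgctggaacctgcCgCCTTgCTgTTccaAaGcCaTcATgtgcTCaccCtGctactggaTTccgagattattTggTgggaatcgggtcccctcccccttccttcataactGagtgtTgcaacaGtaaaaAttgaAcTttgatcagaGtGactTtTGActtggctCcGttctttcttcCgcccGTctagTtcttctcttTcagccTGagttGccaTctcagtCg

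The first pair differed by 6 substitutions (98% identity), and the Snhg14 LTR differed from the first by 12 substitutions and 2 inserted or deleted bases (95.3%). The ERVB7_1 LTR, which carries another name, matched the LTR near Gmnn at 96.7% of the first 90 bases, with 3 substitutions, and at 77.4% over all 300. The motif AATAAA, the usual polyadenylation signal, begins at base 183 of each of the first 3 LTRs, and 41.2% of the 1208 LTRs held it on their own strand (41.9% on either strand). The motif TATAAA was in none of the 3 and in 0.248% of the LTRs on their own strand (28.1% on either strand). The join of LTR and internal part is shown next, because the primer binding site, where reverse transcription of a retroelement starts, follows the LTR. Lower case is the end of the LTR and capitals are the internal part.
MMETn-int_dup720, chr13:24764308-24764367, plus strand: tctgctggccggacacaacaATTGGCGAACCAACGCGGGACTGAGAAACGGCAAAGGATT
MMETn-int_dup16, chr1:15862675-15862734, plus strand: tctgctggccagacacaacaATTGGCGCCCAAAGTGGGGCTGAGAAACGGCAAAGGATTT
MMETn-int_dup364, chr7:59384665-59384724, minus strand: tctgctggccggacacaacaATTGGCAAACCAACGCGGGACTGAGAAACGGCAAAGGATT

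Few copies gave most of the reads. The 10 copies with the most reads held 41.9% of the reads on all members in NPCs and 44.0% to 46.5% in the other 4 experiments, and 12 to 16 copies sufficed for 50%. The leading copy in NPCs, Stop-Cas9-GFP, flox and Emx1-Cre was ETnERV3-int_dup523, an intergenic internal part on the minus strand of chr17:3063216-3067012. In NPCs it had 147, 106, 91, 73, 93 and 33 reads in the KO libraries and 94 and 80 in the controls, so the groups overlapped, and its log2 fold change was 0.24 (SE 0.33, edgeR adjusted p = 1). Its log2 fold changes in the other experiments were -0.09 to 0.49, with overlapping groups in each.

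The leading copies of Cas9-GFP striatal nuclei were neighbours in 1 element, ETnERV-int_dup314 (chr7:59381067-59382228) and MMETn-int_dup364 (chr7:59382230-59384704), both on the minus strand. This element has an RLTRETN_Mm LTR on both sides (95% identity) and lies on the sense strand of Snhg14, a long host transcript for small nucleolar RNAs expressed in neurons. ETnERV-int_dup314 reached 21.4 to 38.8 gene CPM in the KO animals of both Cas9 lines and 29.8 and 33.4 in their controls, and 14.3 to 30.2 in the flox libraries. In NPCs it had 0 to 6 reads per library, at most 0.314 gene CPM. In the Emx1-Cre cortex it had 13 to 32 reads, or 0.969 to 2.16 gene CPM in the KO and 0.707 to 1.44 in the controls. ETnERV-int_dup314 was high in the sorted striatal nuclei, with or without the KO label. It was low in the progenitors and in the cortex, which was taken as tissue and not as sorted nuclei. Its neighbour MMETn-int_dup364 was 25.9 to 34.8 gene CPM in the Cas9-GFP KO animals and 16.3 in the single control. It was not called there (log2 fold change 0.82, SE 0.37, edgeR adjusted p = 0.46). In Stop-Cas9-GFP it was 21.3 to 31.0 against 23.2, and in flox 12.8 to 19.3 against 12.1 to 15.3, with overlap in both. Copies inside a gene on its strand held 16.3% of member reads in NPCs, 37.4% in Cas9-GFP, 35.3% in Stop-Cas9-GFP, 30.8% in flox and 27.5% in the Emx1-Cre cortex. The counts do not separate reads of such a copy's own transcript from reads of the gene around it.

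**Figure D1:**
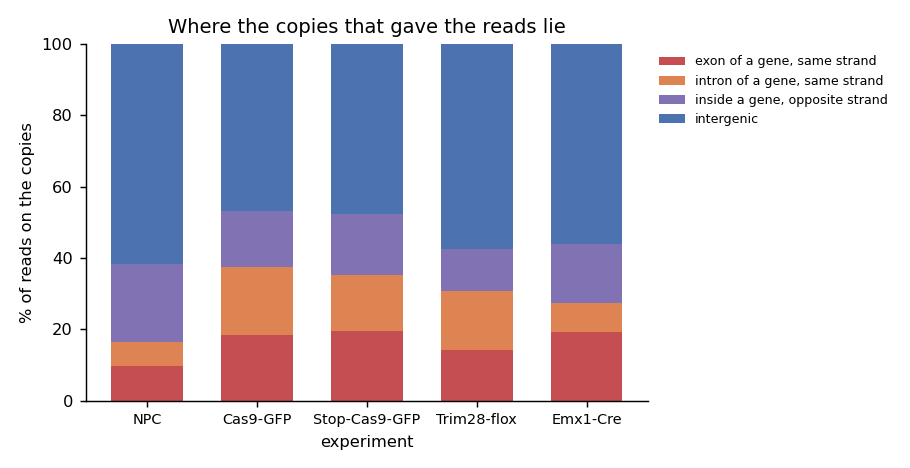
Stacked bars give the percentage of all reads on ETn and MusD copies (y axis, 0 to 100%) by where the copy lies, for the 5 experiments (x axis), KO and control libraries together. Copies on the strand of a gene held 16.3% of the reads in NPCs and 27.5% to 37.4% elsewhere, and intergenic copies 46.8% to 61.7%.

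Summed over copies, none of the subfamilies passed the test. TEtranscripts, which also places reads that map to several copies, gave counts for the same 5 names, and 0 of 5 were called in any experiment by edgeR's quasi-likelihood test, where a call took an adjusted p below 0.05 with a fold change past 0.5 on the log2 scale, also with 0 of 5 at an unadjusted p under 0.05. DESeq2 called none either. Of all subfamilies tested, 0.996% were called higher in NPCs (8 of 803), 0.103% in Cas9-GFP (1 of 967), 0% in Stop-Cas9-GFP and flox and 3.84% in the Emx1-Cre cortex (28 of 730), and 0% were called lower in any. Among the related ERVK subfamilies, MMERVK10C-int rose in NPCs (log2 fold change 3.89, adjusted p = 3.2e-05) and in the Emx1-Cre cortex (2.89, adjusted p = 3.7e-11). The IAP subfamilies IAPEY3-int (1.71, adjusted p = 4.5e-05) and IAPEz-int (0.66, adjusted p = 1.1e-05) rose in the Emx1-Cre cortex and were at 0.41 and 0.35 in NPCs, which did not pass (adjusted p = 0.86 and 0.90).

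MMETn-int, the internal part that RLTRETN_Mm LTRs flank most often, was in NPCs at 820.5, 899.5, 943.6, 867.1, 842.4 and 709.8 TE CPM (counts scaled to 1000000 TE counts) in the KO libraries and 871 and 791 in the controls. The controls lay inside the range of the KO libraries, and the log2 fold change was 0.03, with a 95% interval of -0.23 to 0.28. In the Emx1-Cre cortex it was 1101, 1337 and 1326 TE CPM in the KO and 995, 1179 and 1263 in the controls, again with overlap (0.13, interval -0.12 to 0.38). ETnERV-int, the internal part that ERVB and RLTR13G LTRs flank, was 720.2, 909 and 769 TE CPM in the Emx1-Cre KO against 728, 763 and 772 (0.09, interval -0.15 to 0.32). In NPCs it was 639.5 to 1034 TE CPM in the KO against 770.4 and 1050 (-0.21, interval -0.61 to 0.20).

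ETnERV3-int had the highest estimate in NPCs, 0.45, with an interval of -0.03 to 0.94 and an adjusted p of 0.64 by edgeR. Its KO libraries were 589.8, 543, 399, 509, 387 and 437 TE CPM and its controls 433 and 265, which overlap. The estimate was 0.86 without the control at 433 and 0.14 without the one at 265. In the Emx1-Cre cortex it leaned the other way, at 539.6, 534 and 473 TE CPM in the KO below 563, 569 and 567 in the controls (-0.13, interval -0.35 to 0.08, adjusted p = 0.72). ETnERV2-int in Cas9-GFP had the largest estimate of all, 0.51 (interval -0.14 to 1.15), from 121, 124, 125 and 137 TE CPM in the KO animals and 89.2 in the single control. RLTRETN_Mm, the LTR, ranged from -0.11 in Cas9-GFP to 0.31 in Stop-Cas9-GFP. With scaling by TE counts, every interval but that of ETnERV2-int in Cas9-GFP lay between -1 and 1 on the log2 scale. A 2-fold change so scaled lay outside them. Such scaling takes out a rise shared by most TEs. In gene CPM, unique reads of ETnERV3-int in NPCs were 12.6 to 22.8 in the KO and 8.10 and 11.9 in the controls. Those of RLTRETN_Mm were 8.43 to 11.4 against 5.81 and 7.55, so neither overlapped. Those of ETnERV-int, ETnERV2-int and MMETn-int overlapped. In the Emx1-Cre cortex ETnERV-int was 9.98, 9.21 and 11.9 in the KO against 7.54, 8.92 and 8.53, and the other subfamilies overlapped. In Cas9-GFP the KO animals lay above the single control for every subfamily, as for ETnERV2-int (21.0 to 26.4 against 11.5). In Stop-Cas9-GFP this held for RLTRETN_Mm alone (51.3 to 65.3 against 47.4), and in flox every subfamily overlapped. None of these sums was tested.

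**Figure D2:**
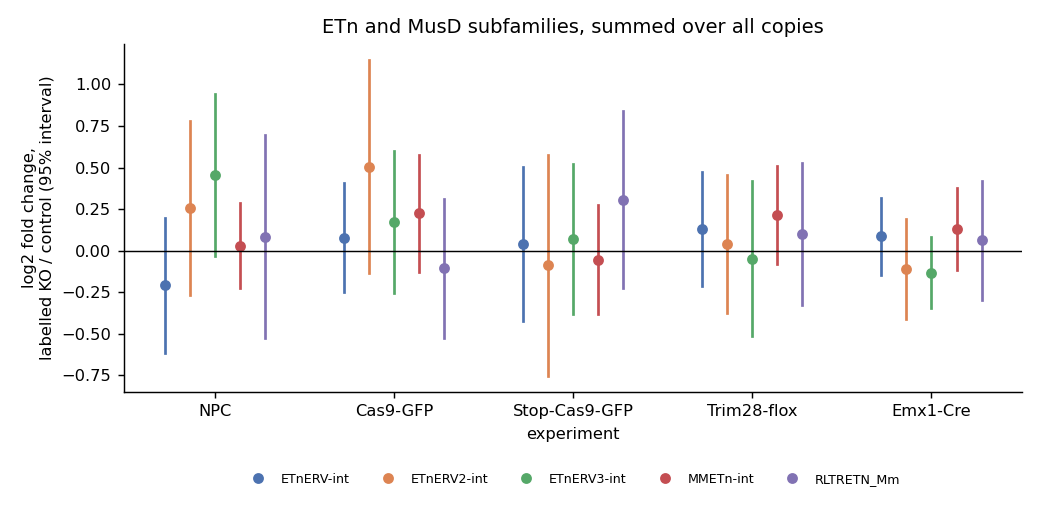
Points are log2 fold changes of the 5 subfamily sums, labelled KO over control (y axis), and vertical lines their 95% intervals, in the 5 experiments (x axis), with 1 colour per subfamily. The estimates run from -0.21 to 0.51 and every interval includes 0.

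Copy by copy, 3 members were called higher against replicated controls, 2 in NPCs and 1 in the Emx1-Cre cortex, and none was called lower. Another was called higher in Cas9-GFP against a single control, and that call was lost without a filter on low counts and with both Cas9 lines in 1 fit. In NPCs 37 members passed the filter on low counts and 2 were called, both higher, where 0.55% of all 35091 copies tested were called higher (193) and 0% lower. In Cas9-GFP 1 of 121 was called higher (0.163% of all copies higher, 0.00379% lower), in Stop-Cas9-GFP 0 of 135 (0.0114% higher, 0.000881% lower), in flox 0 of 60 (0% higher, 0.00641% lower) and in the Emx1-Cre cortex 1 of 25 (2.6% higher, 0.289% lower). By edgeR at an unadjusted p under 0.05 there were 8 of 37, 18 of 121, 1 of 135, 2 of 60 and 5 of 25 in the same order, against 4.51%, 9.43%, 1.85%, 1.51% and 8.11% of all copies tested, and DESeq2 called 0 in Stop-Cas9-GFP and flox as well. In both experiments without a called member few copies of any family were called. In simulated counts for Stop-Cas9-GFP the test found 3 of 100 8-fold changes, so the absence of calls there says little. A copy passes the filter through the group in which it has reads, so these counts describe the tested copies alone.

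The median log2 fold change of the tested members was 0.50 in NPCs, where it was 0.19 over all tested copies, and 29 of 37 were above 0. It was 0.86 in Cas9-GFP (all copies 0.66, 95 of 121 above 0), 0.32 in Stop-Cas9-GFP (all 0.41, 85 of 135), 0.09 in flox (all 0.09, 36 of 60) and 0.05 in the Emx1-Cre cortex (all -0.02, 15 of 25). Scaling by the TE counts in place of the gene counts moved the median of all copies to -0.03, 0.68, 0.18, 0.02 and -0.15 in the same order, and that of the members to 0.29, 0.94, -0.01, 0.02 and -0.08. In both Cas9 lines there was 1 control library, which was assumed to vary like the KO animals, and 29 and 23 of the tested members had no read in it. Such copies passed the filter through the KO group alone and had to lie above 0. With them at the lower bound that 3 reads in the control set, the medians were 0.64 and 0.24. Without them they were 0.50 over 92 members and 0.11 over 112, and in NPCs 0.44 over the 34 members with control reads.

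**Figure D3:**
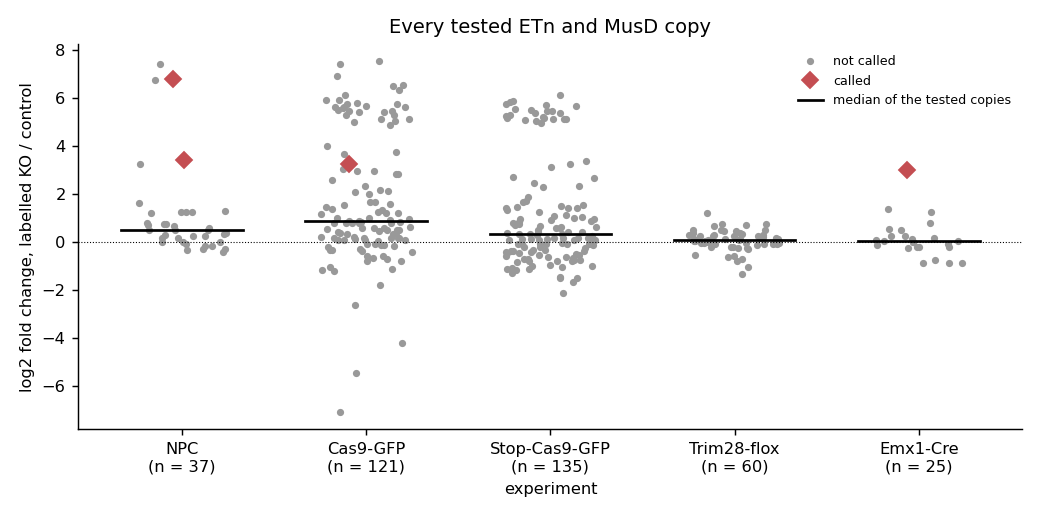
Each point is 1 tested ETn or MusD copy, with its log2 fold change of labelled KO over control (y axis) in the 5 experiments (x axis), red diamonds are called copies and black bars medians, at 0.50, 0.86, 0.32, 0.09 and 0.05 from left to right. The points near the top in NPCs and both Cas9 lines are copies with no control read, where a fitted fold change depends on the prior count.

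MMETn-int_dup720 (chr13:24764328-24768408, plus strand, GRCm38) was the strongest of the called members in NPCs by its adjusted p. It is an intergenic MMETn internal part 2405 bases from Gmnn, the gene of the replication licensing inhibitor geminin, with an LTR at its 5′ end alone. The 2 g3 libraries had 175 and 78 reads, the g4 libraries 61 and 71 and the g13 libraries 75 and 30, against 7 and 10 in the controls. Every KO library lay above both controls, and all 3 guides shared the rise. In gene CPM this was 4.76 ± 2.22 (SD, n = 6) against 0.44 ± 0.09 (SD, n = 2), a log2 fold change of 3.42 (SE 0.52, edgeR adjusted p = 0.0051). Its own LTR, RLTRETN_Mm_dup962, had 6 to 17 reads per KO library and 0 and 2 in the controls (3.27, SE 0.88), which did not pass the test (adjusted p = 0.21). The call needed both controls, as the adjusted p was 0.12 without the control with 7 reads and 0.080 without the one with 10.

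Both sides of this copy held other copies that rose in NPCs. Its 3′ end abuts RLTR10C_dup1327, the LTR of an MMERVK10C provirus that runs toward it on the minus strand. The join is shown because the copies of both families meet there without a base between them, with lower case for the MMETn part and capitals for RLTR10C.
MMETn-int_dup720 and RLTR10C_dup1327, chr13:24768369-24768448, plus strand: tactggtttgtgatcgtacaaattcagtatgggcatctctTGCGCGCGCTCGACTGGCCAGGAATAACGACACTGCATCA

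The internal copy of that provirus next to the join, MMERVK10C-int_dup2561, had 65 to 235 reads per KO library and 10 in both controls together (log2 fold change 4.96, SE 0.47, edgeR adjusted p = 0.00026). Of its other 4 internal copies, all were called (3.98 to 6.51). On the plus strand, the SINE RSINE1_dup89168 before the LTR of MMETn-int_dup720 had 64 reads over the 6 KO libraries and 0 in the controls (adjusted p = 0.011). Whether a transcript from one of these elements reached MMETn-int_dup720 was not tested. Gmnn itself was 15.3 to 35.9 gene CPM in the KO and 12.6 and 34.3 in the controls, which overlap (0.14, SE 0.44, adjusted p = 1).

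In the other experiments MMETn-int_dup720 was not called. Cas9-GFP animals had 17, 17, 25 and 24 reads against 12 (log2 fold change 0.58, SE 1.05), and Stop-Cas9-GFP animals 40, 38, 39 and 21 against 38 (-0.39, SE 0.73). The libraries labelled KO of the flox experiment had 17, 13, 17 and 21 and their controls 15, 8, 27 and 18, for a log2 fold change of 0.05 (SE 0.41, adjusted p = 1). In the Emx1-Cre cortex it had 8, 5 and 4 reads against 5, 2 and 2, too few to be tested, and in gene CPM the KO animals (0.256 to 0.456) lay above the controls (0.0898 to 0.184). Tested directly, the KO effect in NPCs exceeded that in flox by 3.41 on the log2 scale (SE 0.65, edgeR adjusted p = 0.031). This was the 1 called difference among 97 members, where 0.0388% of 82460 copies were called (0.097% for the Emx1-Cre cortex minus flox and 0.00121% for NPCs minus the Emx1-Cre cortex, with 0 members called in either), and its direction rests on the labels of the flox libraries. It was lost in 7 of 22 fits with 1 library left out (adjusted p 0.013 to 1 over them), namely without the g13 library that had 75 reads, either NPC control, the flox libraries labelled KO that had 17, 13 or 17 reads, or the flox control that had 27. The difference between NPCs and the Emx1-Cre cortex was 2.12 (adjusted p = 1).

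ETnERV3-int_dup232 (chrX:24078365-24080079, minus strand) was the other called member in NPCs, and it is intergenic and 96079 bases from the nearest annotated gene. It had 26, 19, 6, 23, 5 and 4 reads in the KO libraries and 0 in both controls. This made the KO level at least 5.09-fold higher than the 3 reads per control library taken as the floor (edgeR adjusted p = 0.048). Without the KO library that had 19, 6 or 23 reads, or either control, it did not pass (adjusted p up to 0.38). It also had 1, 5 and 1 reads in the Emx1-Cre KO cortex and 0 in the 3 controls, and 0 in all 18 libraries from striatal and forebrain nuclei. Upstream on the same strand lies first another member, ETnERV3-int_dup233, with 31 KO and 0 control reads in NPCs. Next come the LINE copies L1Md_F2_dup33311, with 73 and 0 (edgeR adjusted p = 0.065), and L1Md_F2_dup33312, with 48 and 0 (0.34). Beyond them lies the member ETnERV3-int_dup234 with 22 and 0, which like ETnERV3-int_dup233 was not tested. Downstream the copy precedes RLTR13B2_dup164 with 41 and 0 (adjusted p = 0.21).

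A further pair, chosen after its values were seen, was ETnERV3-int_dup463 and ETnERV3-int_dup464 (chr13:61938829-61939503 and chr13:61939641-61941159, plus strand), inside an element with IAPLTR3-int and IAPLTR4 parts. ETnERV3-int_dup464 had 4 and 58 reads in the g3 libraries, 9 and 36 in the g4 libraries and 6 and 12 in the g13 libraries, and 0 in both controls. The libraries carry numbers from 2 series with 1 control and 1 library per guide each, and for each guide the library of the second series had more reads. It did not pass by edgeR (adjusted p = 0.13) and ETnERV3-int_dup463 did not either (adjusted p = 0.18), while the IAP part IAPLTR3-int_dup1697 beside them did, with 364 KO and 0 control reads (adjusted p = 0.031). With the series as a replicate block both were called, which took the count in NPCs from 2 to 4. DESeq2 also called 4, as did the fit without the g3 library that had 4 reads.

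MMETn-int_dup16 (chr1:15862695-15867070, plus strand) was the called member in Cas9-GFP striatal nuclei. It has an LTR on both sides, 99.7% identical to each other, and lies in an intron of Sbspon on the opposite strand. The KO animals had 59 (g13), 71 (g3), 123 (all guides) and 67 (g4) reads against 7 in the single control, which is 5.40, 6.14, 9.31 and 5.94 against 0.685 gene CPM. The log2 fold change was 3.27 (SE 0.75, edgeR adjusted p = 0.016). All 4 KO animals were higher than the control, but controls elsewhere were not low. The Stop-Cas9-GFP control had 6.19 gene CPM, inside the 4.64 to 6.66 of its KO animals, and the 4 flox controls had 2.48 to 5.67, overlapping the 4.00 to 5.89 of the libraries labelled KO. With both Cas9 lines in 1 fit the log2 fold change was 1.01 (adjusted p = 1), and without a filter on low counts the adjusted p was 0.095. Leaving out the animal with all guides raised the number of called members in Cas9-GFP to 4, with ETnERV3-int_dup466, ETnERV3-int_dup532 and RLTRETN_Mm_dup39 added. Sbspon itself was 1.06 to 4.30 against 2.64 gene CPM (adjusted p = 0.97).

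ETnERV-int_dup709 (chr13:62337083-62338495, minus strand) was the called member in the Emx1-Cre cortex. It overlaps an exon of the long noncoding RNA Gm19792, on its strand, in an element that runs from the ERVB7_1 LTR printed above to ERVB7_1-LTR_MM_dup581. The KO animals had 12, 21 and 16 reads and the controls 3, 3 and 2, so the groups did not overlap. In gene CPM this was 0.998 ± 0.284 against 0.121 ± 0.038 (SD, n = 3 each), with a log2 fold change of 2.99 (SE 0.49, edgeR adjusted p = 5.3e-05). The call stood without any 1 of the 6 libraries (adjusted p 4.4e-05 to 0.0041). The next copy of the element, ETnERV-int_dup710, had 10 KO and 3 control reads, and the L1Md_T_dup18590 LINE before the LTR on the same strand rose as well (1.99, SE 0.49, adjusted p = 0.012). Summed markers of oligodendrocytes (1661 to 1798 against 2085 to 2225 gene CPM), endothelium (22.0 to 33.4 against 34.8 to 36.4) and meninges (6.16 to 11.1 against 13.3 to 15.9) were lower in the KO cortex, with no single marker called, and their part in this result was not tested.

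Gm19792 rose with it, from 0.294 to 0.544 gene CPM in the controls to 1.596 to 2.32 in the KO (log2 fold change 2.32, SE 0.33, adjusted p = 0.0019). Gene and copy share sequence and strand, so some reads count for both and the pair is 1 observation. ETnERV-int_dup709 had 17, 3, 2, 1, 4 and 2 reads in NPC KO libraries and 0 in both controls, which fell under the filter. In adult nuclei it was not called, with 43, 30, 17 and 18 reads against 27 in Cas9-GFP, 17, 7, 24 and 17 against 18 in Stop-Cas9-GFP, and 44, 25, 35 and 23 against 62, 46, 55 and 43 in flox (log2 fold change -0.63, SE 0.33, adjusted p = 1). The KO effects in the Emx1-Cre cortex and in flox differed by 3.64 (SE 0.81), which did not pass (adjusted p = 0.081), and the size of this difference rests on the flox labels, since the copy was lower in the libraries labelled KO.

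**Figure D4:**
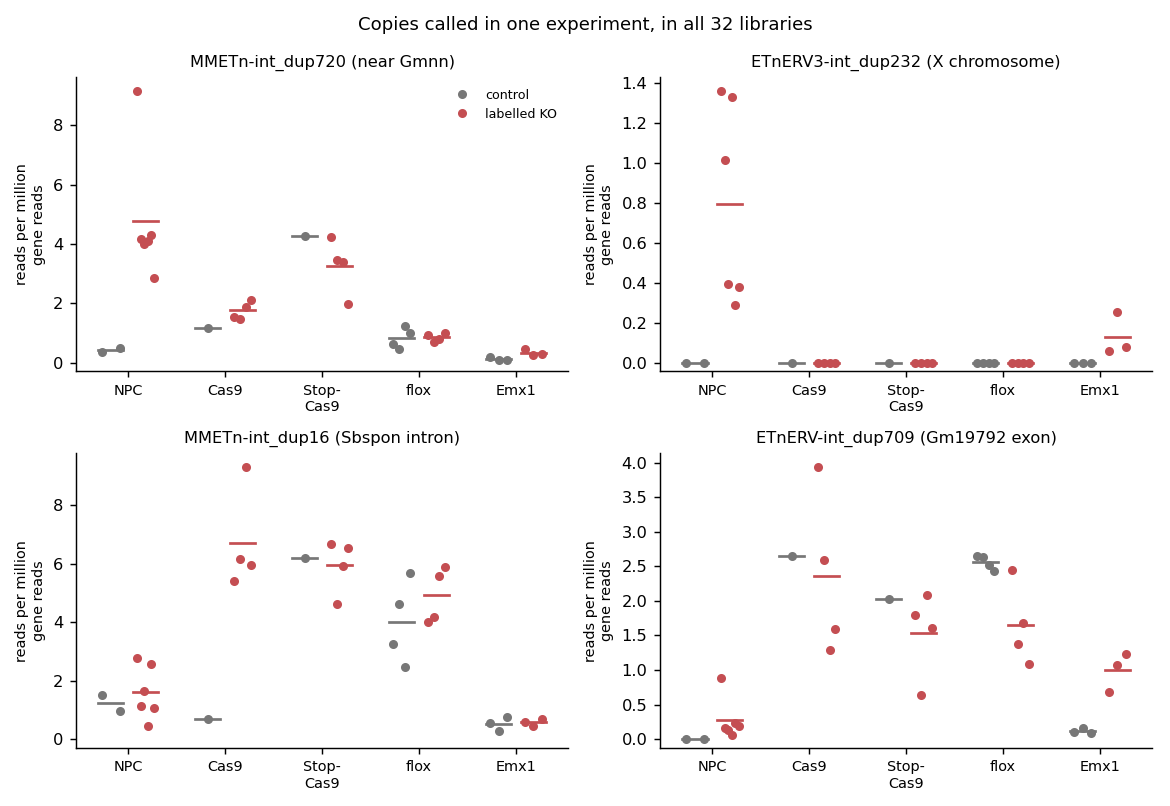
Gene CPM (y axes) of the 4 called copies in each of the 32 libraries, grey for control and red for libraries labelled KO, with bars at the group means, in the 5 experiments (x axes). MMETn-int_dup720 and ETnERV3-int_dup232 stand apart in NPCs, MMETn-int_dup16 in Cas9-GFP, where the lone control is at 0.685, and ETnERV-int_dup709 in the Emx1-Cre cortex.

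Another element with both LTRs came close in the Emx1-Cre cortex. MMETn-int_dup189 (chr4:147544879-147549232, plus strand, LTRs 98.4% identical) had 13, 18 and 12 reads in the KO and 6, 7 and 9 in the controls. The groups did not overlap in gene CPM, but the copy did not pass (log2 fold change 1.38, SE 0.40, edgeR adjusted p = 0.057). It was chosen for description after its values were seen.

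Where no member was called, the 3 with the lowest p are given. In Stop-Cas9-GFP ETnERV3-int_dup50 had 15, 120, 22 and 6 reads against 9, so that 1 animal (g3) stood far above the rest, and the log2 fold change was 1.88 (SE 0.93) with it and 0.42 without it. ETnERV-int_dup20, in an intron of D230017M19Rik, had 37, 22, 8 and 23 reads against 3, and MMETn-int_dup70, in an exon of Cd59b, 44, 66, 13 and 19 against 66. Their adjusted p values by edgeR were all 1. In flox MMETn-int_dup18, an element with 99.1% identical LTRs, had 6.00, 4.58, 7.24 and 6.42 gene CPM in the libraries labelled KO and 3.92, 2.91, 3.58 and 4.02 in the controls. The groups did not overlap (log2 fold change 0.75, SE 0.26), but the adjusted p was 1. ETnERV-int_dup314 in Snhg14 leaned the same way (0.52, SE 0.21) and ETnERV-int_dup710 the other (-1.34, SE 0.64), both with an adjusted p of 1.

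The genes that silence such elements were measured in the same libraries. Of 29, including Setdb1, its partner Atf7ip, the HP1 proteins Cbx1, Cbx3 and Cbx5, the methyltransferases Dnmt1 and Dnmt3a and the HUSH subunits Mphosph8, Pphln1 and Fam208a (Tasor), 26 to 29 were tested per experiment. Other than Trim28, 0 were called in any of the 5 experiments by edgeR, where 0.176% of genes were called higher and 0.0182% lower in NPCs, 0.0117% and 0.0292% in flox, and 0.835% and 0.549% in the Emx1-Cre cortex. In both Cas9 lines 0% of genes were called in either direction. Zfp809, a KRAB zinc finger protein that brings Trim28 to retroviral primer binding sites, came close in NPCs, with 28.2 to 35.9 gene CPM in the KO and 15.2 and 16.6 in the controls (log2 fold change 1.01, SE 0.16, adjusted p = 0.0501). Of genes within 10 kb of the called copies 4 were tested and Gm19792 was the 1 called.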

How the data were processed

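Bulk RNA-seq libraries (TruSeq stranded mRNA, NextSeq 500) were mapped by the authors with STAR 2.6.0 to GRCm38.p6. The deposited counts per gene and per TE copy were made by the authors with featureCounts (Subread 1.6.3) from uniquely mapped, strand-specific reads, so young, near-identical copies lose reads, and the deposited subfamily counts by TEtranscripts, which also uses reads that map to several places. 6 columns of the copy table matched no sample and were not used, nor were the single-nucleus and CUT&RUN samples.

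Copies were scaled by the gene library sizes and TMM factors, subfamilies by their own. edgeR's (4.0.16, R 4.3.3) quasi-likelihood test was fitted within each experiment on all copies, genes or subfamilies after filterByExpr, with Benjamini-Hochberg adjustment over all of them. A call took an adjusted p below 0.05 with a fold change past 0.5 on the log2 scale, and a difference between experiments an adjusted p under 0.05. The floor for a group without reads was 3 counts per library, which covers counting error only. The scripts were tested on simulated counts with known changes. Of 100 simulated 8-fold changes 92 were recovered in NPCs, 32 in Cas9-GFP, 3 in Stop-Cas9-GFP, 85 in flox and 100 in Emx1-Cre. Fewer of the weaker changes were recovered in each. Of the simulated calls 21 of 54 in Cas9-GFP and 7 of 11 in Stop-Cas9-GFP were false. In NPCs, flox and Emx1-Cre 12 of 159, 8 of 125 and 12 of 211 were. Named copies were the called ones, or the 3 with the lowest p where none was called. The members and lists were chosen with earlier results of these data known. Alternatives were other scaling, no filter, DESeq2 (1.42.0), leaving out each library and joint fits.

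The NPC libraries carry 2 series of numbers. The differences between series correlated at 0.573 to 0.797 between the 3 guides and the control (6 pairs, 14335 genes). The main NPC fit has no term for the series, which entered as a replicate block in an alternative alone. The paper describes the NPC groups as biological replicates without saying whether these were separate cultures. P-values therefore measure the spread between these libraries.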

Additional observations from a re-analysis of the deposited data

Results flagged for a closer look

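Of 37 groups of 4 or more libraries examined, 4 held a library far from the others by Dixon's criterion, which chance gives in about 1 in 20 groups. ETnERV3-int_dup50 was at 10.9 gene CPM in the Stop-Cas9-GFP animal with g3, and the next animal was at 1.92. MMETn-int_dup720 was at 9.16 gene CPM in 1 NPC KO library with g3, and the next KO library was at 4.30. The MMETn-int subfamily was at 2412 TE CPM in the Cas9-GFP animal with all guides, and the next was at 1782. It was lowest, at 1668 TE CPM, in 1 flox control, and the next control was at 2044. The flox library labelled KO with the adjacent number was lowest in its group too, at 1838 against 2363 to 2542 TE CPM. For RLTRETN_Mm that control and that library were highest, at 541 and 605 TE CPM against 365 to 432 in the other flox libraries. The flox fit has no term for such a pair, and the cause was not tested.

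The KO effect on MMETn-int_dup720 was larger in NPCs than in the flox libraries by 3.41 on the log2 scale (edgeR adjusted p = 0.031), where the direction in flox is that of its labels.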

How the results depend on the processing

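In NPCs the number of called copies was 1 with TE scaling and 4 without a filter, with DESeq2 and with the series as a replicate block, which changed no other call, and it ran from 0 to 4 when 1 library was left out. ETnERV3-int_dup232 had an adjusted p of 0.089 with TE scaling. In Cas9-GFP the number was 0 without a filter and 0 with both Cas9 lines in 1 fit, and 1 to 4 with 1 library left out. The lone control of either Cas9 line could not be left out, because no fit remained. In the Emx1-Cre cortex the number was 2 without a filter, adding MMETn-int_dup869. The difference between NPCs and flox gave 0 copies with TE scaling (MMETn-int_dup720 3.25, adjusted p = 0.098) and 0 to 1 with 1 library left out, as did that between Emx1-Cre and flox. The MMETn-int_dup720 difference ran from 3.09 to 3.63 there. With a window of 50 kb, 2 nearby genes were called. Allowing gaps of 100 bases, a choice made after seeing the data, gave 13 loci with both LTRs.

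No subfamily was called under any alternative, but small estimates changed sign. With gene scaling these were ETnERV-int in NPCs (0.09), RLTRETN_Mm in Cas9-GFP (0.20), ETnERV2-int (0.043) and MMETn-int (0.049) in Stop-Cas9-GFP and ETnERV3-int in flox (0.022). With both Cas9 lines in 1 fit they were RLTRETN_Mm (0.084), ETnERV2-int (0.18) and MMETn-int (0.075). Leaving out 1 library gave -0.42 to 0.043 for ETnERV-int, -0.0044 to 0.59 for ETnERV2-int, -0.039 to 0.11 for MMETn-int and -0.11 to 0.32 for RLTRETN_Mm in NPCs, and 0.14 to 0.86 for ETnERV3-int there, which kept its sign. It gave -0.020 to 0.13 for ETnERV-int in Cas9-GFP, and -0.11 to 0.10 for ETnERV-int and -0.16 to 0.011 for ETnERV2-int in Stop-Cas9-GFP. In flox it gave -0.072 to 0.16 for ETnERV2-int, -0.22 to 0.054 for ETnERV3-int and -0.069 to 0.25 for RLTRETN_Mm. In the Emx1-Cre cortex it gave -0.019 to 0.18 for ETnERV-int, -0.22 to 0.0018 for ETnERV2-int and -0.10 to 0.27 for RLTRETN_Mm. The cause of these changes was not tested. Members took 626 to 5742 reads per library, and 25 to 135 of 5606 copies could be tested in an experiment.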

Other observations

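The subfamily counts from TEtranscripts and the sums of uniquely mapped reads differed by subfamily. Unique reads came to 29.6% to 52.3% of the TEtranscripts count for ETnERV-int and 54.4% to 90.2% for MMETn-int over the 5 experiments, and to 117% to 202% for ETnERV2-int. Gm3604, 29833 bases from ETnERV-int_dup709 and chosen after its values were seen, was 5.73 to 7.41 gene CPM in the Emx1-Cre KO cortex and 2.17 to 2.94 in the controls (log2 fold change 1.30, SE 0.18, edgeR adjusted p = 0.0019).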
